A study of Mus musculus with 4 samples.

Results

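Rab6b, Rnaset2b, Rnaset2a, Gdpd3, Hebp1, Wdfy1 and Ramp3 were followed across cell types in single-cell RNA libraries of mouse lung. They are 7 of the 32285 genes in the deposited matrices, found by symbol, and they were chosen by their values in these same libraries because they set libraries apart. What follows on the choice itself is therefore a description. All 7 had counts in endothelium of each library.

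The study profiled lung cells depleted of CD45-positive cells with magnetic beads and then taken with CD31 beads, CD31 being a surface protein of endothelium. Sham was the library of wild-type mice after a sham operation, and WTPNX that of wild-type mice on day 7 after PNX, the usual abbreviation of pneumonectomy (removal of lung tissue). M3cKOPNX and Foxo1cKOPNX came from mice with a conditional knockout, taken at the same day after PNX. The sources used here do not name the gene behind M3, the promoter that drove recombination, the strain, the age or how many animals were pooled. With a single library for each group there was no spread between animals and no test, and the 95% intervals given below cover counting error only.

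The libraries held 7617 to 9266 cell barcodes and 16197681 to 30445999 UMIs (unique molecular identifiers, 1 per captured transcript molecule), and any pair of libraries shared 68 to 111 barcodes. Cells passed at 500 genes or more and at most 10% mitochondrial UMIs. Endothelial cells, gated on 6 marker genes and the absence of leukocyte, epithelial and fibroblast transcripts, numbered 4657 in Sham, 3850 in WTPNX, 2455 in M3cKOPNX and 3773 in Foxo1cKOPNX, with 10473889, 13608601, 6405520 and 12247198 UMIs in that order. All 6 marker genes were detected there, summing to 10794 to 12997 CPM. The same order gave 66, 530, 240 and 538 B cells and 89, 668, 1288 and 905 T or NK cells, which had come through the bead selection. Monocytes or macrophages (38 to 374 cells) and fibroblasts (16 to 57 cells) were few, and the pericyte gate held 1 cell in Sham and 0 elsewhere. Foxo1, the named target of 1 knockout, was at 195, 207 and 182 CPM in endothelium of Sham, WTPNX and M3cKOPNX and at 69.7 in Foxo1cKOPNX, 2.97-fold lower than in WTPNX (2.75 to 3.21), where CPM, the standard depth-scaled unit, sets a gene's UMIs against the total UMIs of the summed cells. Reads from exons that were not removed would still be counted, so this level does not measure deletion.

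The 7 genes belong to no common pathway. Rab6b encodes a small GTPase of the Golgi transport system that is best known from neurons, and Rnaset2a and Rnaset2b are the mouse copies of an acid ribonuclease of lysosomes. Gdpd3 encodes a lysophospholipase D, Hebp1 a heme-binding protein that is also the precursor of a chemoattractant peptide, Wdfy1 an endosomal adaptor of Toll-like receptor signalling, and Ramp3 a receptor activity-modifying protein that turns the calcitonin receptor-like receptor into a receptor for adrenomedullin.

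In GRCm38 coordinates Rab6b (ENSMUSG00000032549) lies at chr9:103111787-103185276 on the plus strand and Ramp3 (ENSMUSG00000041046) at chr11:6658521-6677475, plus strand. Gdpd3 (ENSMUSG00000030703) is at chr7:126766334-126775649, plus strand, overlapped by Gm9967 on the other strand. Hebp1 (ENSMUSG00000042770) is at chr6:135137522-135198022, minus strand, overlapped by Gm19434 and Fam234b, and Wdfy1 (ENSMUSG00000073643) is at chr1:79702262-79776143, minus strand, overlapped by Mrpl44. Whether the counting used strand is not given in the sources used here, so reads of such overlaps could be shared. Rnaset2b (ENSMUSG00000094724) is at chr17:6970634-7011299, plus strand, and Rnaset2a (ENSMUSG00000095687) at chr17:8115445-8148097, minus strand.

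The members of the Rnaset2 pair are near-identical copies, which bears on every count of them. GENCODE transcripts Rnaset2a-201 (1793 bases) and Rnaset2b-201 (1783 bases) differed by 7 mismatches and 10 gap bases over their whole length, an identity of 99.6%. Their 777 coding bases held 0 mismatches, and the longest run without a difference was 819 bases. The last 500 bases, where a 3′ library draws most of its reads, held 4 mismatches. The coding part of the last coding exon is printed as a stretch in which the copies cannot be told apart. It is given 5′ to 3′ in transcript direction, GRCm38 chr17:8128689-8128886 (minus strand) for Rnaset2a and chr17:6997898-6998095 (plus strand) for Rnaset2b, all in lower case because no base differs.
Rnaset2a-201: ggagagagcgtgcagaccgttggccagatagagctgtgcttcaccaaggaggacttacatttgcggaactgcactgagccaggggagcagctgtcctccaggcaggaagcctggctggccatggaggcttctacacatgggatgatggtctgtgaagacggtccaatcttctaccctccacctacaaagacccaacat
Rnaset2b-201: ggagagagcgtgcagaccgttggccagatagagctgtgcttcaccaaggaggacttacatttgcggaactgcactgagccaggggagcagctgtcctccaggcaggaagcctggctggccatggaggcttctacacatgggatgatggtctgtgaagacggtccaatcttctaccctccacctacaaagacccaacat
A read from such a stretch matches both genes, so the split of their counts rests on the few bases that differ and is uncertain.

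In endothelium Rab6b was at 68.4 CPM in Sham (63.4 to 73.6), 6.76 in WTPNX (5.45 to 8.29), 51.2 in M3cKOPNX (45.8 to 57.1) and 5.55 in Foxo1cKOPNX (4.31 to 7.04). Sham and M3cKOPNX were high and the other pair low, with no overlap between the pairs, and WTPNX and Foxo1cKOPNX could not be told apart (1.22-fold, 0.880 to 1.69). The fold was 10.1 from WTPNX up to Sham (8.13 to 12.7) and 7.57 from WTPNX up to M3cKOPNX (5.99 to 9.65). Both comparisons therefore gave a large value for Rab6b, with opposite signs, and the comparison of Foxo1cKOPNX with WTPNX did not.

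Rnaset2b followed the same order, at 93.1, 25.0, 65.4 and 20.7 CPM in Sham, WTPNX, M3cKOPNX and Foxo1cKOPNX. It was 3.73-fold lower in WTPNX than in Sham (3.29 to 4.23) and 2.62-fold higher in M3cKOPNX than in WTPNX (2.26 to 3.03). Rnaset2a went the other way, at 106, 164, 84.1 and 162 CPM in that order of libraries, 1.55-fold higher in WTPNX than in Sham (1.44 to 1.67) and 1.95-fold lower in M3cKOPNX than in WTPNX (1.78 to 2.15). Summed, the pair stood at 199, 189, 150 and 182 CPM, a narrower range than either gene alone.

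The part of the pair's UMIs counted as Rnaset2a was lower in Sham and M3cKOPNX than in WTPNX and Foxo1cKOPNX in all 5 cell types. In endothelium it was 53.2% in Sham (exact binomial interval 51.0 to 55.4, 2083 UMIs), 86.8% in WTPNX (85.4 to 88.1), 56.3% in M3cKOPNX (53.1 to 59.4) and 88.7% in Foxo1cKOPNX (87.3 to 90.0). T or NK cells had 57.1%, 80.7%, 55.5% and 81.0%, and B cells 63.6%, 90.1%, 58.9% and 90.5%. Monocytes or macrophages had 65.4%, 89.8%, 62.4% and 85.7%, and fibroblasts 50%, 88.9%, 46.9% and 90% on 8 to 49 UMIs. The share was nearer 50% in Sham and M3cKOPNX and above 80% in the other libraries in each of these 5 cell types, with wide intervals in the small Sham gates. In monocytes or macrophages the interval of Sham (44.3 to 82.8) overlapped that of Foxo1cKOPNX (79.9 to 90.4). In fibroblasts Sham (15.7 to 84.3) overlapped both WTPNX (70.8 to 97.6) and Foxo1cKOPNX (76.3 to 97.2).

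**Figure D1:**
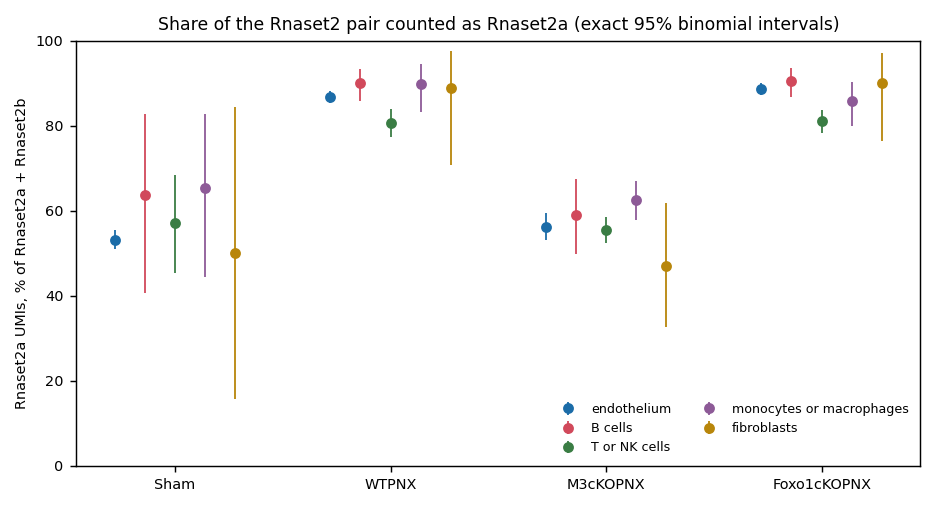
The y axis gives Rnaset2a UMIs as a percentage of Rnaset2a and Rnaset2b UMIs together, the x axis the 4 libraries, each point a cell type and each bar its exact 95% binomial interval. Points lie between 46.9% and 65.4% in Sham and M3cKOPNX and between 80.7% and 90.5% in WTPNX and Foxo1cKOPNX.

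Gdpd3 was at 10.2 CPM in Sham (8.37 to 12.3), 37.4 in WTPNX (34.2 to 40.8), 11.6 in M3cKOPNX (9.07 to 14.5) and 131 in Foxo1cKOPNX (125 to 138). It thus differed between the low pair and the high pair and, within the high pair, by 3.51-fold (3.17 to 3.88). WTPNX stood 3.66-fold above Sham (2.97 to 4.55) and 3.24-fold above M3cKOPNX (2.53 to 4.19). Sham and M3cKOPNX could not be told apart (1.13-fold, 0.829 to 1.54).

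Hebp1 grouped the libraries differently, at 5.25 CPM in Sham (3.96 to 6.84), 29.9 in WTPNX (27.1 to 33.0), 79.8 in M3cKOPNX (73.0 to 87.0) and 64.6 in Foxo1cKOPNX (60.2 to 69.2). The 4 intervals did not overlap. WTPNX was 5.70-fold above Sham (4.29 to 7.69), and the 2 knockout libraries lay 2.67-fold (2.34 to 3.05) and 2.16-fold (1.91 to 2.44) above WTPNX. In male-type cells, described further on, the log2 ratio of WTPNX to Sham was 0.07 in place of 1.77, so that value depends on which cells are summed.

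Wdfy1 was low in Sham alone, at 19.6 CPM (17.0 to 22.4), against 71.4 in WTPNX, 65.6 in M3cKOPNX and 68.5 in Foxo1cKOPNX. The 3 PNX libraries could not be told apart from their neighbours in the order (1.04-fold each). The step from Sham to WTPNX was 3.65-fold (3.14 to 4.26). Beside these Sham-low genes, 3 platelet transcripts (Pf4, Ppbp and Gp9), all detected, summed to 34.8 CPM in Sham endothelium and to 421, 424 and 355 in WTPNX, M3cKOPNX and Foxo1cKOPNX, and the median depth was 1841 UMIs per cell in Sham and 2059 to 2656.5 in the others. The part of either in the values of Wdfy1 and Hebp1 was not tested.

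Ramp3 was high in M3cKOPNX alone, at 74.2 CPM (67.6 to 81.1), against 15.5 in Sham, 17.6 in WTPNX and 21.4 in Foxo1cKOPNX. The fold over WTPNX was 4.20 (3.59 to 4.93). Sham and WTPNX could not be told apart (1.14-fold, 0.93 to 1.40).

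A gene was counted as parting a set of libraries from the rest when the lowest of the set was at least 1.5-fold above the highest of the rest on the CPM + 5 scale. For Sham with M3cKOPNX on one side and WTPNX with Foxo1cKOPNX on the other, 4 of the 7 genes did so in endothelium, Rab6b and Rnaset2b above and Rnaset2a and Gdpd3 below. Over all 7426 genes at 20 CPM or more in some library that pairing held for 3.82%. Rnaset2a was just inside, at 1.51-fold, and the other 3 stood at 4.78-fold (Rab6b), 2.35-fold (Rnaset2b) and 2.56-fold (Gdpd3). Rnaset2a was outside under 7 of 10 other settings, among them TMM scaling and male-type cells. The same pairing was met by 4 of the 7 genes in B cells (8.42% of all genes) and in T or NK cells (8.49%), and by Rnaset2b and Gdpd3 alone in monocytes or macrophages (6.03%) and in fibroblasts (9.36%). In B cells Rab6b rested on 5 UMIs in all, and of the 4 genes that reached 20 CPM there 3 parted the pairs. Nothing is read from these counts, since the genes were chosen for them.

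Hebp1 and Wdfy1 parted Sham from the rest from below, as 2.34% of genes did in endothelium. Hebp1 also parted M3cKOPNX with Foxo1cKOPNX from above (0.135%). Ramp3 parted M3cKOPNX from above (1.79%), and Gdpd3 also parted Foxo1cKOPNX from above (0.175%). Some split of the 4 libraries at 1.5-fold was found for 11% of all genes. By the coarser rule of 2-fold with 50 CPM or more in the higher library, 4.61% of genes differed between WTPNX and Sham, 5.25% between M3cKOPNX and WTPNX and 0.438% between Foxo1cKOPNX and WTPNX. Over all genes the median log2 ratio was 0.04, −0.11 and −0.01 in these comparisons, against 0.61, 1.23 and −0.02 for the 7. The 7 were chosen for their values here and differ in direction, so nothing is read from their median. In Foxo1cKOPNX against WTPNX, for example, Gdpd3 was at 1.68 and Hebp1 at 0.995. Both comparisons with Sham or M3cKOPNX use WTPNX, so their values for 1 gene are not independent.

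**Figure D2:**
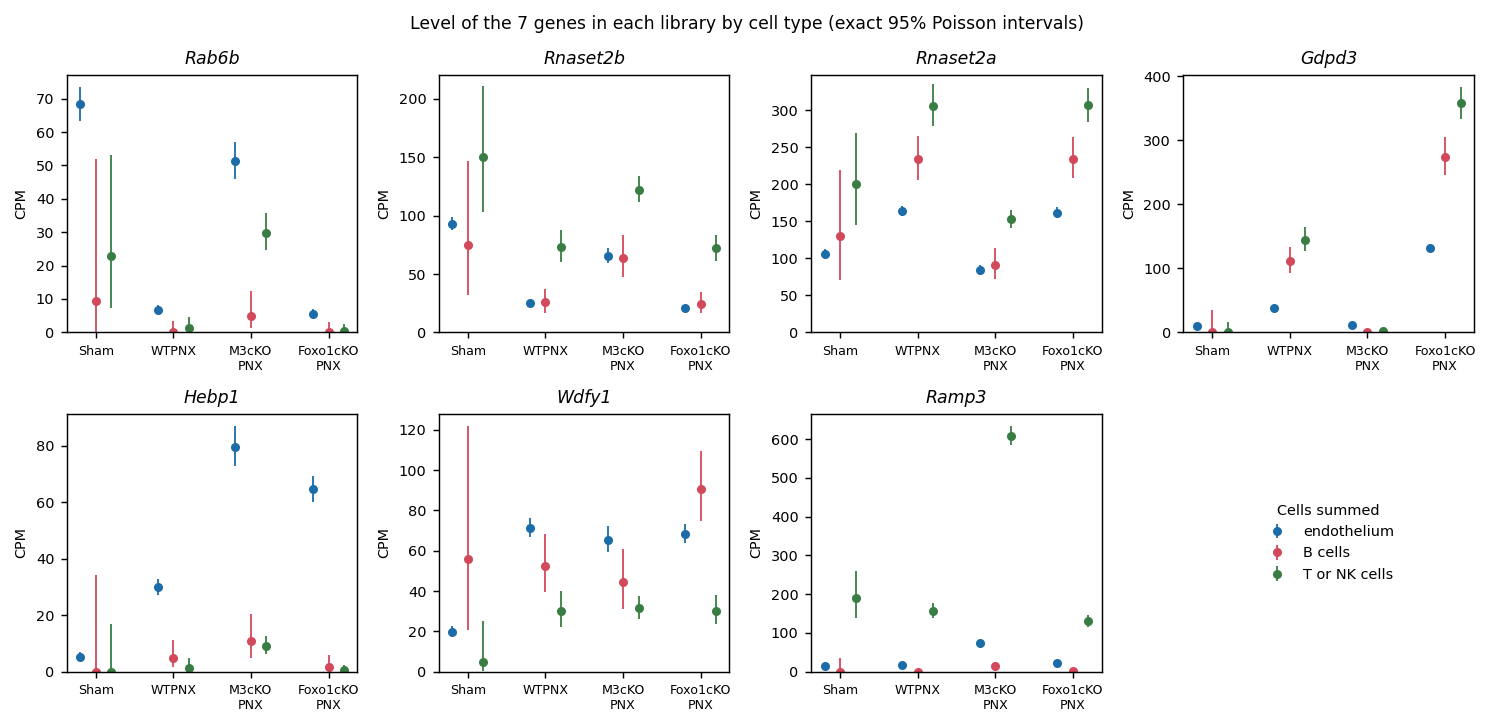
The y axes give CPM from 0 and the x axes the 4 libraries, 1 panel per gene, with endothelium, B cells and T or NK cells as separate points and exact 95% Poisson intervals as bars. Rab6b and Rnaset2b are high in Sham and M3cKOPNX, Rnaset2a and Gdpd3 in WTPNX and Foxo1cKOPNX, and Ramp3 in M3cKOPNX.

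Rab6b in T or NK cells had 22.8 CPM in Sham (5 UMIs, 7.40 to 53.2), 1.31 in WTPNX (2 UMIs), 29.8 in M3cKOPNX (117 UMIs, 24.7 to 35.7) and 0.444 in Foxo1cKOPNX (1 UMI). M3cKOPNX and Sham were thus high here too, and the ratio of M3cKOPNX to WTPNX was 22.8 (6.18 to 191). A list of 7 endothelial genes stood in these cells at 0.444% to 2.06% of its endothelial level. At that share carried-over endothelial RNA would give 0.227 CPM of Rab6b in M3cKOPNX and 1.14 in Sham. In B cells Rab6b had 1 UMI in Sham, 4 in M3cKOPNX and 0 in WTPNX and Foxo1cKOPNX, where 0 allows up to 2.86 and 2.45 CPM. The Sham UMI amounts to 9.33 CPM (0.236 to 52.0), an interval that includes the 2.09 CPM that carried-over RNA would give there.

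T or NK cells held Rnaset2b at 150 CPM in Sham, 73.1 in WTPNX, 122 in M3cKOPNX and 71.9 in Foxo1cKOPNX, and Rnaset2a at 201, 306, 153 and 307. Neither the high nor the low pair could be split further for either gene. In B cells Rnaset2b was at 74.7, 25.7, 63.5 and 24.5 CPM and Rnaset2a at 131, 234, 91.1 and 235 in the same order. Immunoglobulin transcripts took 28.6% of the M3cKOPNX B cell UMIs and 1.87% to 2.36% in the other libraries. With those UMIs left out of the totals, an alternative added after the data were seen, Rnaset2b was at 89.0 and Rnaset2a at 128 CPM in M3cKOPNX B cells, and the same 4 genes parted.

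Gdpd3 gave the widest gap in leukocytes. B cells held 0 UMIs of it in Sham and in M3cKOPNX (allowing up to 28.0 and 3.59 CPM) against 111 CPM in WTPNX (92.2 to 134) and 275 in Foxo1cKOPNX (246 to 306). T or NK cells held 0 UMIs in Sham (up to 13.7 CPM), 2.55 CPM in M3cKOPNX, 145 in WTPNX (127 to 165) and 358 in Foxo1cKOPNX (334 to 384). Foxo1cKOPNX again lay above WTPNX, by 2.47-fold (2.13 to 2.88). In male-type cells, described further on, it did not. Those T or NK cells had 352 CPM in WTPNX and 161 in Foxo1cKOPNX, and male-type B cells 203 and 182. Female-type cells had 5.68 and 670 CPM among T or NK cells and 10.5 and 432 among B cells. Monocytes or macrophages had 15.2, 152, 25.2 and 360 CPM in Sham, WTPNX, M3cKOPNX and Foxo1cKOPNX, so the order of the libraries was that of endothelium apart from neighbours that could not be told apart. After each cell was thinned to 1000 UMIs, 23.8% of Foxo1cKOPNX T or NK cells had a Gdpd3 UMI, 9.74% in WTPNX, 0.0784% in M3cKOPNX and 0 of 83 cells in Sham.

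Hebp1 was near 0 in lymphocytes: T or NK cells had 9.17 CPM in M3cKOPNX (36 UMIs) and 0 to 2 UMIs in each other library, and B cells at most 10.8 CPM. Monocytes or macrophages held 142 CPM in M3cKOPNX (124 to 161), 68.3 in WTPNX and 59.99 in Foxo1cKOPNX, and 0 UMIs in Sham, whose 38 cells allow up to 45.6 CPM. Neutrophil transcripts (S100a8, S100a9 and Retnlg) summed to 2862 CPM in this gate in M3cKOPNX, 2504 in WTPNX, 1195 in Foxo1cKOPNX and 0 in Sham, and their part in the Hebp1 values was not tested. Cells with C1qa, a macrophage complement gene, made up 82 of the 374 M3cKOPNX cells but 6 of 87 in WTPNX and 10 of 137 in Foxo1cKOPNX. In cells without C1qa Hebp1 was at 139 CPM in M3cKOPNX, 57.0 in WTPNX and 46.1 in Foxo1cKOPNX, so M3cKOPNX was high there too. In cells with C1qa it was at 148, 119 and 139 CPM, and the intervals overlapped.

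Wdfy1 did not repeat its endothelial order everywhere. T or NK cells had 4.56 CPM in Sham (1 UMI, 0.115 to 25.4) against 30.0, 31.6 and 30.2 in WTPNX, M3cKOPNX and Foxo1cKOPNX. B cells had 56.0 CPM in Sham on 6 UMIs, against 52.4 in WTPNX, 44.3 in M3cKOPNX and 90.8 in Foxo1cKOPNX. The ratio of WTPNX to Sham in B cells was 0.936 (0.404 to 2.66), an interval that lies below the 3.65-fold step of endothelium. Monocytes or macrophages had 60.8 CPM in Sham on 4 UMIs and 62.1, 35.1 and 39.2 in WTPNX, M3cKOPNX and Foxo1cKOPNX. Their ratio of WTPNX to Sham was 1.02 (0.342 to 4.11). That interval includes the endothelial step, so whether Sham was low there cannot be told. Fibroblasts had 22.4 CPM in Sham on 1 UMI and 62.2, 60.4 and 57.3 in WTPNX, M3cKOPNX and Foxo1cKOPNX, with overlapping intervals.

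Ramp3 was also highest in M3cKOPNX in T or NK cells, at 609 CPM in M3cKOPNX (585 to 634) against 191 in Sham, 157 in WTPNX and 130 in Foxo1cKOPNX. The order of the other libraries was not that of endothelium: the ratio of Foxo1cKOPNX to Sham was 0.677 here (0.489 to 0.959) and 1.38 in endothelium (1.13 to 1.69). The fold of M3cKOPNX over WTPNX was 3.89 (3.4 to 4.46), and 6.16% of all genes parted M3cKOPNX from above there. With 2 or more Cd3 UMIs required, Ramp3 was at 629 CPM in M3cKOPNX and at 131 to 236 in the others. Thinned to 1000 UMIs per cell, 36.5% of M3cKOPNX T or NK cells had a Ramp3 UMI, and 11.7% to 13.3% elsewhere. B cells of M3cKOPNX had 14.4 CPM (12 UMIs), and the 3 other libraries 1 UMI in all. The neutrophil transcripts also differed here, summing to 1025 CPM in T or NK cells of M3cKOPNX, 816 in Foxo1cKOPNX, 188 in WTPNX and 9.11 in Sham, and to 1616 CPM in M3cKOPNX B cells, and their part in the values of Ramp3 was not tested.

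Fibroblasts gave few UMIs. Rnaset2b was at 89.5, 13.3, 65.5 and 19.1 CPM in Sham, WTPNX, M3cKOPNX and Foxo1cKOPNX on 3 to 26 UMIs, so Sham and M3cKOPNX were high as in endothelium. Gdpd3 had 33 UMIs in Foxo1cKOPNX (158 CPM), 3 in WTPNX, 1 in M3cKOPNX and 0 in Sham. Monocytes or macrophages had 137, 40.4, 103 and 62.3 CPM of Rnaset2b and 259, 354, 172 and 374 of Rnaset2a. The directions of both copies were those of endothelium, but Sham rested on 9 and 17 UMIs. Rnaset2b had a ratio of WTPNX to Sham of 0.295 (0.117 to 0.782). Its ratio of Foxo1cKOPNX to Sham, 0.455 (0.208 to 1.10), had an interval that includes 1. So did the Rnaset2a ratios to Sham of WTPNX, 1.37 (0.819 to 2.43), and of Foxo1cKOPNX, 1.45 (0.875 to 2.54).

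Over endothelium, B cells and T or NK cells together, 25 genes of 6110 (0.409%) parted the Sham and M3cKOPNX pair in the same direction in each, at the minimum counts that rule asked for. Rnaset2b, Rnaset2a and Gdpd3 were among them, and Rab6b fell short only of the UMI minimum in B cells. The 10 with the widest endothelial gap were Xist, BC023719, Gm10260, Fbln5, Gm12166 and Gbp9, lower in Sham and M3cKOPNX like Gdpd3, and Rplp1, Hspa1b and Rps3a1, higher there. Xist, the RNA that silences an X chromosome in female cells, had 0 UMIs in Sham and M3cKOPNX endothelium and 132 and 154 CPM in WTPNX and Foxo1cKOPNX. The libraries without Xist are thus those high in Rab6b and Rnaset2b, and the part of the animals' sex in these levels was not tested across libraries.

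Cells were called male-type with a UMI of Ddx3y, Eif2s3y, Kdm5d or Uty and no Xist, and female-type with Xist and none of those; this split was added after the values were seen. Endothelium held 792 male-type and 931 female-type cells in WTPNX, 564 and 927 in Foxo1cKOPNX, and 1195 and 741 male-type cells in Sham and M3cKOPNX with 0 female-type ones. In 33 WTPNX and 31 Foxo1cKOPNX cells both kinds of transcript were found, and those cells were left out. Within WTPNX, Rnaset2b was at 8.12 CPM in male-type and 42.9 in female-type cells (ratio 0.189, 0.126 to 0.278), and within Foxo1cKOPNX at 39.4 and 3 (13.1, 7.02 to 27.2). Gdpd3 was at 60.03 and 14.8 CPM in WTPNX (4.06, 2.98 to 5.64) and at 58.6 and 166 in Foxo1cKOPNX (0.354, 0.293 to 0.426). The direction was opposite in the 2 libraries for both genes.

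The Rnaset2a share told the same: 95.9% in WTPNX male-type cells, 76.9% in its female-type cells, 78.4% in Foxo1cKOPNX male-type and 98.4% in its female-type cells, against 53.1% and 60.6% in male-type cells of Sham and M3cKOPNX. B cells gave ratios of male-type to female-type cells of 19.3 in WTPNX (6.21 to 96.8) and 0.421 in Foxo1cKOPNX (0.305 to 0.578) for Gdpd3. Rnaset2a itself was at 190 and 143 CPM in male-type and female-type cells of WTPNX and at 143 and 187 in Foxo1cKOPNX. Hebp1 was at 8.61 and 53.7 CPM in WTPNX (0.160, 0.108 to 0.231) and at 62.7 in both kinds of cells in Foxo1cKOPNX. Male-type WTPNX cells were thereby near Sham in Hebp1 (7.94 CPM in its male-type cells), and female-type ones near the knockout libraries. Rab6b stayed low in both kinds of cells of both libraries, at 3.82 to 8.75 CPM, and so did Ramp3, at 13.9 to 24.5 CPM, while Wdfy1 stayed at 63.3 to 81.2 CPM.

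Across autosomal genes, 1.2% were 2-fold apart between male-type and female-type endothelial cells in WTPNX and 1.68% in Foxo1cKOPNX, at 20 CPM in the higher. Opposite directions in the 2 libraries were found for 11 of 6662 genes (0.165%), of which Rnaset2b and Gdpd3 are 2. T or NK cells gave the same for both: Rnaset2b was at 21.1 and 122 CPM in WTPNX and 110 and 12.01 in Foxo1cKOPNX, and Gdpd3 at 352 and 5.68 CPM in WTPNX and 161 and 670 in Foxo1cKOPNX. In those smaller sums 16.7% and 11.6% of genes were 2-fold apart, and 70 of 5623 (1.24%) in opposite directions. General capillary cells alone repeated the endothelial directions, with Rnaset2b at 7.47 and 35.8 CPM in WTPNX and 30.8 and 2.57 in Foxo1cKOPNX. Cells of 1 library share its animals, whose number is unknown, so these ratios compare cells and not animals, and sex and animal cannot be told apart. Median depth was 4154 UMIs in male-type and 2692 in female-type WTPNX endothelial cells and 3437.5 and 3011 in Foxo1cKOPNX, and Sftpc, a surfactant gene of alveolar epithelium, was at 64.7 and 1760 CPM in WTPNX, whose part in the member values was not tested. Foxo1 itself was at 128 CPM in male-type and 36.8 in female-type endothelial cells of Foxo1cKOPNX, against 212 and 218 in WTPNX.

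**Figure D3:**
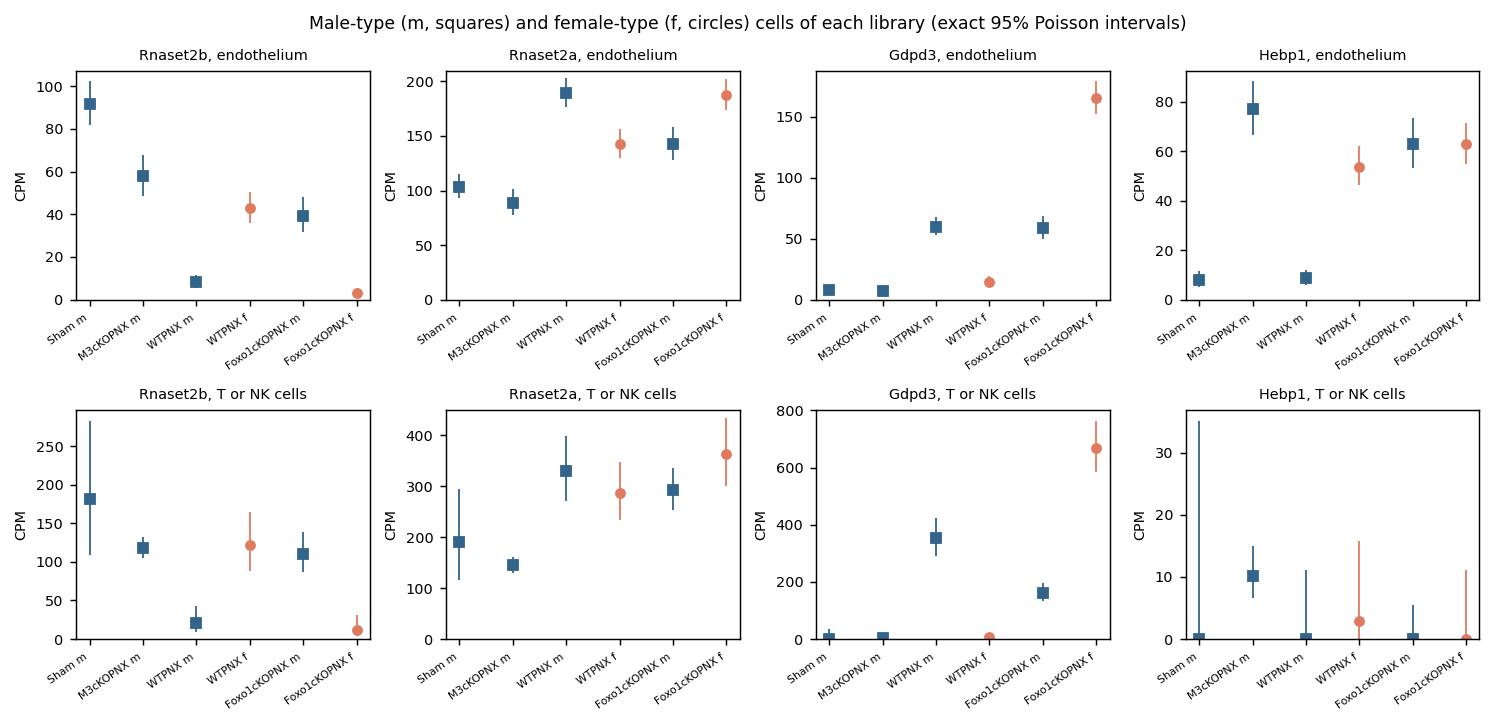
The y axes give CPM from 0 in male-type cells (squares) and female-type cells (circles) of each library, the upper row for endothelium and the lower for T or NK cells, with exact 95% Poisson intervals. For Rnaset2b the low points are male-type WTPNX (8.12 CPM in endothelium) and female-type Foxo1cKOPNX cells (3 CPM), and for Gdpd3 female-type WTPNX cells (14.8) lie near Sham and M3cKOPNX.

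With male-type endothelial cells alone, Rab6b was at 69.4, 4.43, 42.5 and 5.74 CPM in Sham, WTPNX, M3cKOPNX and Foxo1cKOPNX and Gdpd3 at 8.23, 60.03, 7.41 and 58.6. Both still parted the pairs, while Rnaset2b, at 91.4, 8.12, 57.7 and 39.4, and Rnaset2a, at 104, 190, 88.9 and 143, no longer did at 1.5-fold. The difference in Gdpd3 between Foxo1cKOPNX and WTPNX was not seen in male-type cells (log2 ratio −0.031, against 1.68 over all endothelial cells).

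Within endothelial classes, assigned from class markers, Rab6b was higher in Sham and M3cKOPNX in aerocytes, general capillary and venous cells. It was at 71.7 and 54.5 CPM against 3.56 and 2.42 in aerocytes (the Car4-positive capillary cells that face the alveoli), at 70.6 and 55.9 against 10.3 and 6.5 in general capillary cells, and at 21.7 and 27.2 against 3.80 and 6.22 in venous cells. The 1.5-fold limit was also met in arterial and lymphatic cells, but M3cKOPNX had 3 UMIs in each (32.6 and 15.8 CPM, against 85.9 and 110 in Sham), as many UMIs in arterial cells as WTPNX and Foxo1cKOPNX. Rnaset2b parted the pairs in aerocytes and general capillary cells, and in lymphatic cells on 5 UMIs in M3cKOPNX. It was high in Sham alone in arterial cells (140 CPM against 31.4 to 33.8, 40 M3cKOPNX cells) and in venous cells (128 CPM against 34.2, 56.4 and 38.6 in WTPNX, M3cKOPNX and Foxo1cKOPNX, 141 M3cKOPNX cells). Rnaset2a missed the 1.5-fold limit between the pairs in each class, with 111, 175, 91.4 and 167 CPM in general capillary cells of Sham, WTPNX, M3cKOPNX and Foxo1cKOPNX. It was low in M3cKOPNX alone in venous cells (66.1 CPM against 123 to 186) and, on 5 UMIs, in arterial cells (54.3 CPM against 123 to 205). WTPNX arterial cells also stood above the rest.

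Gdpd3 varied by class as well as by library. In Foxo1cKOPNX it was at 223 CPM in aerocytes, 133 in general capillary, 125 in arterial and 107 in lymphatic cells but 16.2 in venous cells, and in WTPNX at 61.0, 35.1, 28.6, 105 and 10.4. Venous cells were the 1 class in which it parted no libraries. Hebp1 was at 118 and 95.1 CPM in aerocytes of M3cKOPNX and Foxo1cKOPNX, 55.1 in WTPNX and 6.70 in Sham, and lymphatic cells differed, with Sham (27.5) and WTPNX (26.2) alike.

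Wdfy1 had its highest levels in venous cells, at 122, 101 and 103 CPM in WTPNX, M3cKOPNX and Foxo1cKOPNX against 20.3 in Sham. Sham stood below the rest in aerocytes, general capillary, venous and lymphatic cells. In arterial cells Sham and M3cKOPNX were both low (16.1 and 21.7 against 62.3 and 62.7 CPM), but on 3 and 2 UMIs. Ramp3 was at 113 CPM in venous, 84.5 in general capillary and 54.3 in arterial cells (5 UMIs) of M3cKOPNX. It was at 9.35 in M3cKOPNX aerocytes, a class where no library stood apart.

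**Figure D4:**
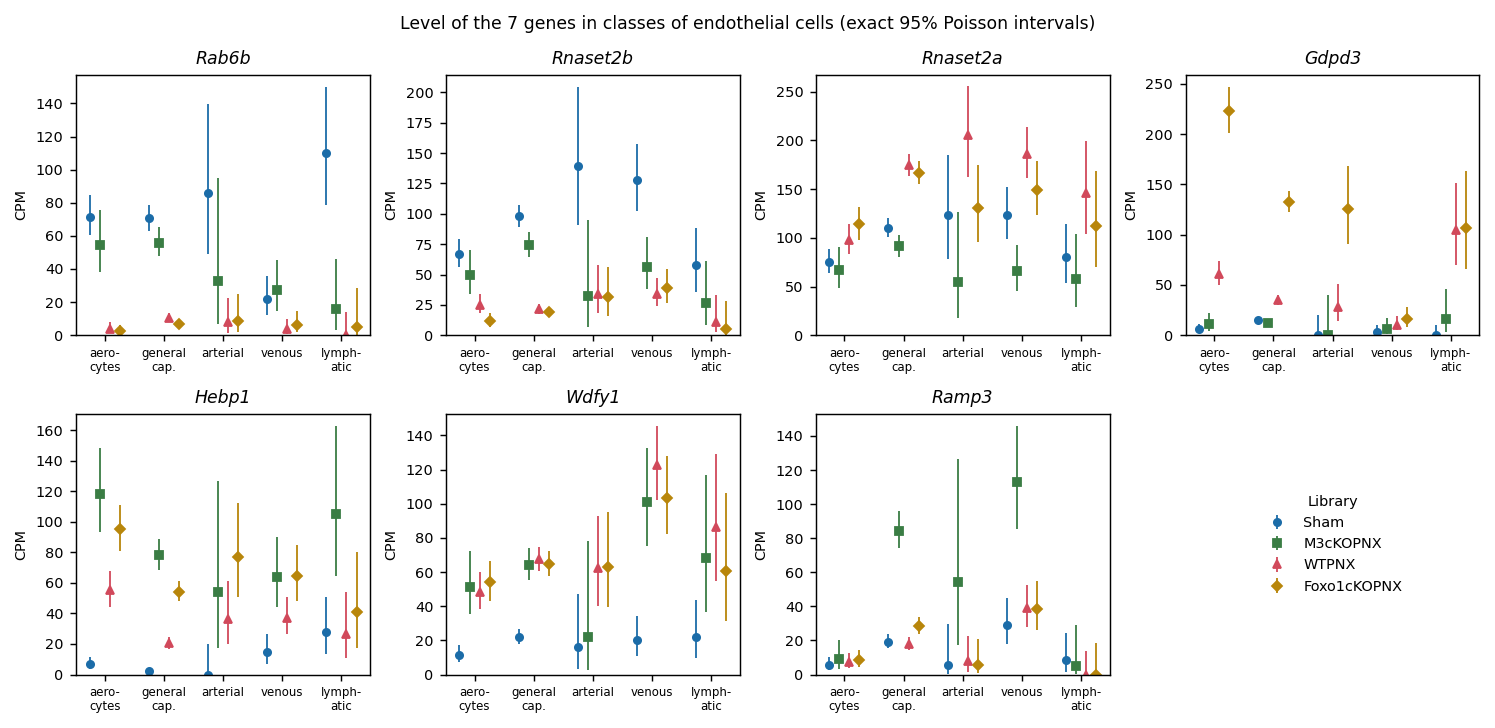
The y axes give CPM from 0 in 5 endothelial classes (x axes), with 1 marker per library and exact 95% Poisson intervals. Rab6b is high in Sham and M3cKOPNX in aerocytes, general capillary and venous cells, with 3 M3cKOPNX UMIs behind its arterial and lymphatic points, Gdpd3 is near 0 to 16.2 CPM in venous cells of all libraries, and Ramp3 in M3cKOPNX lies above the others in venous (113) and general capillary cells (84.5) but not in aerocytes (9.35).

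The genes next to the members on the chromosome were counted by whether they shared a library pattern. Among 20 flanking genes at 20 CPM or more (19 for Rnaset2b), the number that shared a split with the member in endothelium was 2 for Rab6b, 1 for Rnaset2b, 2 for Rnaset2a, 0 for Gdpd3, 1 for Hebp1, 1 for Wdfy1 and 0 for Ramp3. Rnaset2a and Rnaset2b have many flanking genes in common, so their counts are not separate. Over all genes 1.59% had Sham and M3cKOPNX above the rest, the split of Rab6b and Rnaset2b, and 2.24% WTPNX and Foxo1cKOPNX above, that of Rnaset2a. Sham lay below the rest, as for Hebp1 and Wdfy1, in 2.34%. The nearest sharing neighbour was Trf, which encodes transferrin, 18.7 kb from Rab6b, at 28.3 and 30.1 CPM in Sham and M3cKOPNX and 13.9 and 15.3 in WTPNX and Foxo1cKOPNX. Mpc1, a mitochondrial pyruvate carrier gene 135 kb from Rnaset2a, was at 27.0 and 25.6 CPM against 44.3 and 48.01, in the direction of Rnaset2a. Sft2d1, 163 kb from Rnaset2a, went the other way, at 36.7 and 38.6 CPM against 19.2 and 16.2, the direction of Rnaset2b. Emp1, 165 kb from Hebp1, was at 506 CPM in Sham and 826 to 1316 in the PNX libraries.

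The genes most like each member were sought by Pearson's r of centred log2 values over 12 points (3 cell types in 4 libraries) among 5326 genes, as a description, since the points share libraries and totals. They were Tomm22 (0.969), Ppp1r12c (0.962) and H2-Q6 for Rab6b, Necap2 (0.961), Rps3a1 (0.946) and Rplp1 for Rnaset2b, and Samd9l (0.985), Gbp9 (0.984) and Ddx55 (0.974) for Rnaset2a. For Gdpd3 they were Gm9844 (0.972), Hnrnpul1 and Gimap9, for Hebp1 Tubb6 (0.893), Itgb3 and Ldha, for Wdfy1 Ipo9 (0.953), Smarcb1 and Leng8, and for Ramp3 Nr4a3 (0.975), Ifrd1 (0.968) and Nmnat1 (0.944). Among the members, Rab6b and Rnaset2b had r = 0.92 and Rnaset2a and Gdpd3 0.883, while Rnaset2b and Rnaset2a had −0.845. Other pairs lay between these, such as Rab6b with Hebp1 (−0.117) and with Ramp3 (0.493). The members were chosen for their values in these libraries, so nothing is read from r between them. The value of the Rnaset2 pair also depends on how reads were split between the copies.

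The relatives of each member were counted in endothelium, as genes at 20 CPM or more in either library. By that rule 15.5% of all genes were 1.5-fold apart between WTPNX and Sham, and 17.6% between M3cKOPNX and WTPNX. The members were chosen for their values in these libraries, so nothing is read from their place in these counts. Of 9 measured genes of the Rab6 list (Rab6 and its effectors), Rab6b was the 1 gene at 1.5-fold in WTPNX against Sham and in M3cKOPNX against WTPNX, and Rab6a, the close relative used in most tissues, was at 299, 284, 336 and 278 CPM in Sham, WTPNX, M3cKOPNX and Foxo1cKOPNX. Beside the Rnaset2 pair, Rnase4, a secreted ribonuclease, was lower in WTPNX than in Sham (37.0 against 66.3 CPM). Of 4 measured genes of the GDPD and N-acyl phospholipid list, Gdpd3 was higher and Abhd4, a hydrolase of the same lipids, lower (60.7 against 101 CPM).

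In the heme list Hebp1 was the 1 of 4 measured genes higher in WTPNX than in Sham. In M3cKOPNX against WTPNX, Hebp1 and Hmox1, the inducible heme oxygenase (29.0 against 16.4 CPM), were higher and Blvra, a biliverdin reductase (12.02 against 20.6), lower, of 5. Of 5 measured WDFY and Toll-like receptor adaptor genes Wdfy1 alone was higher in WTPNX than in Sham, and Tlr3, a receptor for double-stranded RNA, was lower in M3cKOPNX than in WTPNX (23.1 against 36.4 CPM). Of 4 measured genes of the RAMP system Ramp3 alone passed 1.5-fold in M3cKOPNX against WTPNX. Ramp2, the main endothelial partner of Calcrl, was at 2260 to 2764 CPM in the 4 libraries, and Calcrl at 1463 CPM in M3cKOPNX against 2170 in WTPNX, 1.48-fold lower.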

How the data were processed

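Single-cell libraries of lung cells were analysed from filtered matrices of UMI counts per gene and cell barcode, which the authors deposited. Alignment to mm10 used Cell Ranger 2.1.1 per the labels' protocols, while the file headers name software version 3.0.0. The submitters' processing notes also name R 3.4.4. The counts were summed over cells of a library and cell type and scaled to the summed total (CPM). Cells needed 500 genes and at most 10% mitochondrial UMIs, and marker gates set the cell types. Cells that passed more than 1 gate were left out, and no doublet caller was run. Levels carry exact Poisson, ratios exact conditional binomial and shares exact Clopper-Pearson 95% intervals, for counting error only; a count of 0 is given with the limit of 3 counts. With 1 library per group no test was possible. The 7 genes, the lists and the rules for named genes (related-list genes at 1.5-fold, the 3 most alike genes per member, the 10 widest gaps) were chosen with earlier results of these data known. Male-type and female-type cells were set by Y-linked transcripts and Xist. Alternatives changed filters, gates, scaling (TMM, edgeR 4.0.16 in R 4.3.3), pseudocount (5 or 1 CPM) and fold limit. Positions and transcripts come from GENCODE for GRCm38, in which 32235 of 32285 gene IDs matched. Python 3.11.15, numpy 2.4.6, scipy 1.17.1, pandas 2.3.3 and matplotlib 3.10.9 were used, and the code was tested on simulated data. The counts over the ribonuclease list are not reported here.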

Additional observations from a re-analysis of the deposited data

Results flagged for a closer look

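In 3 of the genes the ratio of male-type to female-type cells lay above 1 in one library and below 1 in the other, with counting intervals on opposite sides. The difference between the libraries was not tested, because each is 1 library. Rnaset2b in endothelium had a ratio of 0.189 in WTPNX and 13.1 in Foxo1cKOPNX, and in T or NK cells 0.173 and 9.16. Rnaset2a in endothelium had 1.33 in WTPNX and 0.762 in Foxo1cKOPNX, the opposite directions to its copy. Gdpd3 had 4.06 and 0.354 in endothelium, 19.3 and 0.421 in B cells, and 62.0 and 0.241 in T or NK cells. The last WTPNX ratio rests on 2 UMIs in female-type cells.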

How the results depend on the processing

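No paired analysis was possible because the labels give no replicate numbers and each group is 1 library. Of 189 ratios of the 7 genes under alternative settings, 158 stayed within the counting interval of the value reported, 30 moved and 1, called at 1.5-fold, reversed: Gdpd3 in Foxo1cKOPNX against WTPNX went from 1.68 to −0.031 (log2) in male-type cells. Rnaset2b in that comparison, under 1.5-fold over all cells (−0.22), was 1.76 in male-type cells. The number of genes parting Sham and M3cKOPNX from the rest in endothelium was 2 in male-type cells (Rab6b and Gdpd3) and 1 (Rab6b) with female-type cells of WTPNX and Foxo1cKOPNX, an alternative chosen after seeing the data. Rnaset2a was also lost in endothelium at 5% mitochondrial UMIs, 4 marker UMIs, in general capillary cells, without the 5% of cells with most UMIs, with TMM and at 2-fold, and in T or NK cells with 2 or more Cd3 UMIs (added after seeing the data). At 5% mitochondrial UMIs the number of parting genes was 0 in B cells, 1 in T or NK cells and 1 in fibroblasts. In that order 1 to 17, 2 to 37 and 4 to 11 cells per library were left. B cells gave 2 at 1000 genes per cell (15 Sham cells) and 2 at a 2-fold limit, and T or NK cells 2 at that limit. Genes 2-fold apart numbered 283 in place of 185 for WTPNX against Sham in male-type cells, and 411 at 20 CPM. M3cKOPNX against WTPNX gave 415 in place of 207 at 20 CPM. Foxo1cKOPNX against WTPNX gave 40 at 5% mitochondrial UMIs, 41 in male-type cells and 35 at 20 CPM, in place of 17. TMM scaling changed the split of higher and lower genes from 108 and 77 to 91 and 98 for WTPNX against Sham and from 111 and 96 to 145 and 71 for M3cKOPNX against WTPNX. The causes of these changes were not tested. Depth limits the Sham gates other than endothelium, which held 16 to 89 cells, the pericyte gate aside.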
